A study of Mus musculus with 6 samples.

Results

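Glycolysis and glucose uptake genes were followed in CD4 T cells labelled as deleted (KO) or not deleted (WT) for the arginine methyltransferase gene Prmt5. The members are 32 listed genes that cover the route of glucose from the cell surface to lactate and to the mitochondrion, and they were matched by gene symbol among 54532 gene rows. The 32 symbols matched 33 rows, because Aldoa has 2 rows. The second Aldoa row, which covers a neighbouring stretch upstream on the same strand, was at 0.1 or below in all 6 libraries and is not used further. The other 32 rows passed a filter on low values (mean FPM of 1 or more across libraries) and are among the 14944 genes tested.

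The KO group held 3 libraries (KO 1, KO 4 and KO 5, genotype iCD4-PRMT5 delta/delta) and the WT group 3 (WT 1, WT 2 and WT 4, genotype iCD4-PRMT5fl/fl), all on the C57BL/6 background. What drives the deletion, the age of the mice and whether animals were pooled are not given in the sources used here. Each sample was made from lysed CD4 T cells of spleen and lymph nodes, with ribosomal RNA removed before stranded sequencing. The treatment label of both groups names CD3 and CD28 antibodies for 48 h, whereas every title carries the word rest, so the activation state is uncertain and both groups share it. A code in the descriptions places KO 1, WT 1 and WT 2 in library series 22 and KO 4, KO 5 and WT 4 in series 24. What the code stands for is not stated, and it is used here only as a name for these sets of libraries. Values are robust FPM as deposited, a depth-scaled number of fragments for each gene, and the sequencing depth behind them is unknown. Changes are log2(FPM + 0.5), KO minus WT, from a limma fit with a term for library series, and a gene was called at an adjusted p below 0.05. The submitters call the samples biological replicates, so the tests rest on the variation among 3 of each genotype.

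Glucose enters a T cell through SLC2A carriers, is trapped by hexokinase, is split to triose by the upper steps of glycolysis and is carried to pyruvate by the lower steps. Pyruvate is either reduced to lactate and exported, or moved into the mitochondrion and fed to pyruvate dehydrogenase, which pyruvate dehydrogenase kinases switch off. Naive T cells rely mainly on mitochondrial respiration, and activation through the T cell receptor is known to raise glucose uptake and lactate output, with MYC and HIF-1 among the factors that act on these genes.

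Of the 32 members, 0 were called higher and 0 lower in KO by limma, against a background of 0% in each direction, since it called 0 of all 14944 genes. At an unadjusted p under 0.05 there were 0 members, against 12 higher genes (0.0803%) and 25 lower genes (0.167%) of all tested. Both shares lie far below what that threshold yields on average where no gene differs. The p-values of this fit thus ran high, and 0 members under the threshold says little. The reason was not tested, and the 95% intervals come from the same fit. No member had KO and WT values that did not overlap, against 1.09% of all genes with every KO value higher and 1.79% with every KO value lower. The limma adjusted p was 1 for each member. The changes of single members ran from -0.36 for Eno2 to 0.38 for Hk3. Their median was 0.10, beside 0.01 over all genes tested. With the deposited scaling 26 of 32 members had a change above 0, as did 54.4% of all genes. With median-of-ratios scaling it was 28 members, beside 63.7% of all genes, and with ERCC scaling 3 members, beside 7.87%. With the deposited scaling, a 1.5-fold difference in either direction lay outside the 95% interval for 24 members (60.1% of all genes). A 2-fold difference did so for 30 members (85.1% of all genes). These counts do not carry over to ERCC scaling, whose factors ran from 0.708 (WT 1) to 1.39 (WT 2) and for which intervals were not read. The members whose interval reached 2-fold with the deposited scaling were Hk3 and Eno2. Scaling to the ERCC spike-in RNAs moved the median of all genes by more than 0.1, to -0.20, and that of the members to -0.12. The members' median lay 0.08 above that of all genes with all libraries, 0.02 above without WT 1, 0.16 above without WT 4 and, at a difference of -0.02, below it without KO 1.

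**Figure D1:**
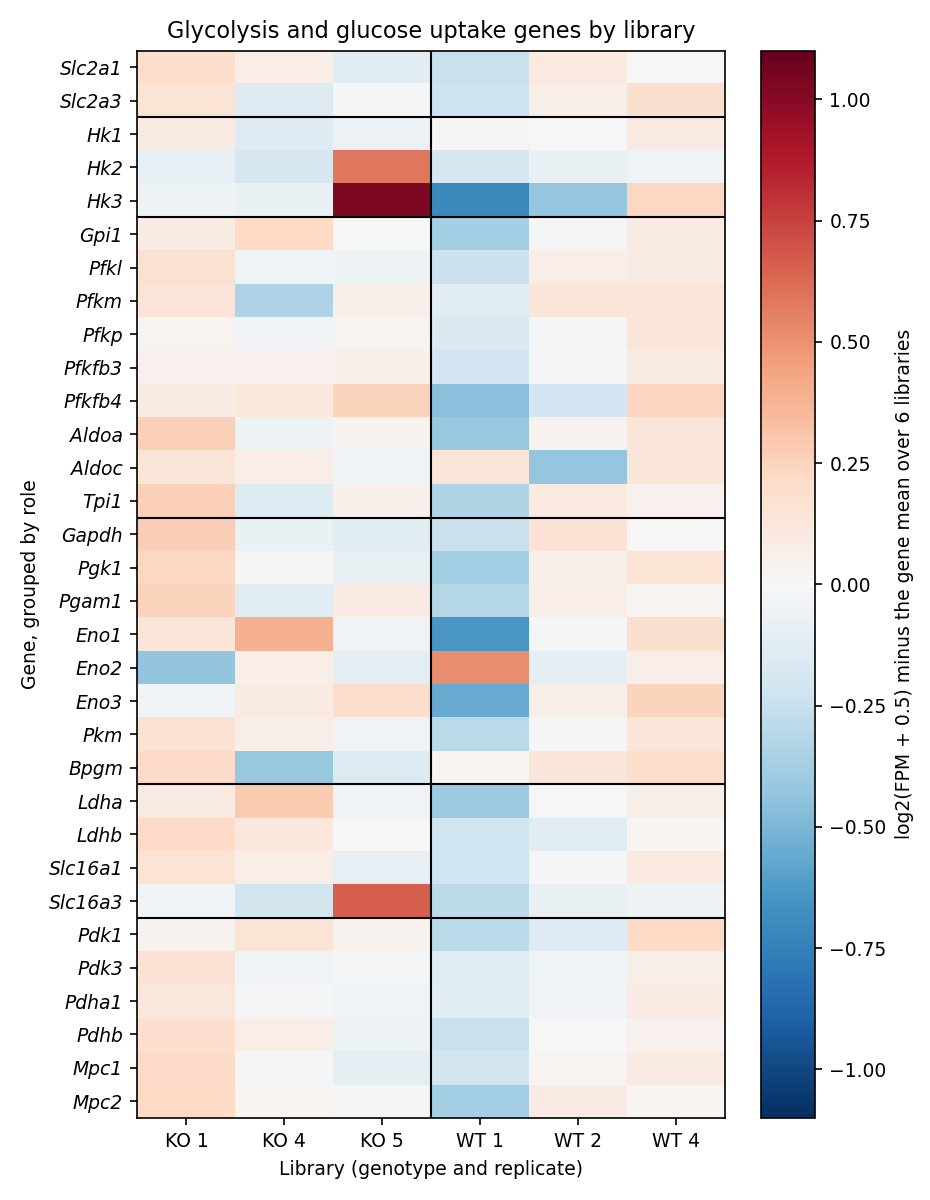
Heat map of log2(FPM + 0.5) minus each gene's mean over the 6 libraries (colour scale), with the 32 genes in rows grouped by role and the 3 KO libraries left of the 3 WT libraries. The WT 1 column is lowest for 26 of the 32 genes, and Hk3, Hk2 and Slc16a3 stand out in KO 5.

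Prmt5, read first as a check of the labels, measured 24.4, 23.8 and 21.5 FPM in KO 1, KO 4 and KO 5, against 34.9, 41.0 and 43.9 FPM in WT 1, WT 2 and WT 4. Every KO library lay below every WT library, with a change of -0.78 (SE 0.137), which did not pass after adjustment (limma adjusted p = 1). Values are per gene, and which exons were deleted is not stated. Its partner gene Wdr77 had a change of -0.06. Over the 6 libraries the ERCC rows took between 0.752% and 1.59% of a column, and olfactory and vomeronasal receptor genes, which T cells are not known to express, measured 0.0253 to 0.0805 FPM per kb of exon in KO libraries and 0.0145 to 0.300 in WT libraries. The highest of these was WT 1, which therefore stood apart. The 10 T cell markers, Cd4 and Cd3e among them, summed to 3730 to 4128 FPM in KO libraries and 3322 to 4238 FPM in WT libraries. All 16 myeloid markers were also detected, with sums of 583.5 to 1495 FPM in KO libraries and 250 to 905.1 FPM in WT libraries, and all 16 were highest in KO 5. In such bulk samples fewer cells of a type and less RNA per cell cannot be told apart.

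The members differed between libraries more than between genotypes. WT 1 held the lowest value of 26 of 32 members, against 44.3% of all genes tested. The other WT libraries were lowest for 1 member (WT 2, 9.55% of all genes) and 0 members (WT 4, 8.12%). KO 1 held the highest value of 18 members, against 2999 of the 14944 genes tested. WT 4 held that of 5 members, against 3990 of all genes. The members' median level, relative to each gene's mean over the libraries, was 0.15, 0.00 and -0.02 in KO 1, KO 4 and KO 5 and -0.25, -0.01 and 0.09 in WT 1, WT 2 and WT 4 on the log2 scale. All genes tested stood at 0.03, -0.01 and 0.03 in the same KO libraries and at -0.12, -0.02 and 0.09 in the same WT libraries. The 32 members together took 0.298%, 0.298% and 0.288% of the gene sum in the KO libraries, against 0.211%, 0.282% and 0.297% in the WT libraries. WT 1 was thus the one library with a clearly lower share, while WT 4 matched KO 1 and KO 4. The high background of WT 1 moves with this result, and its part in it was not tested.

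**Figure D2:**
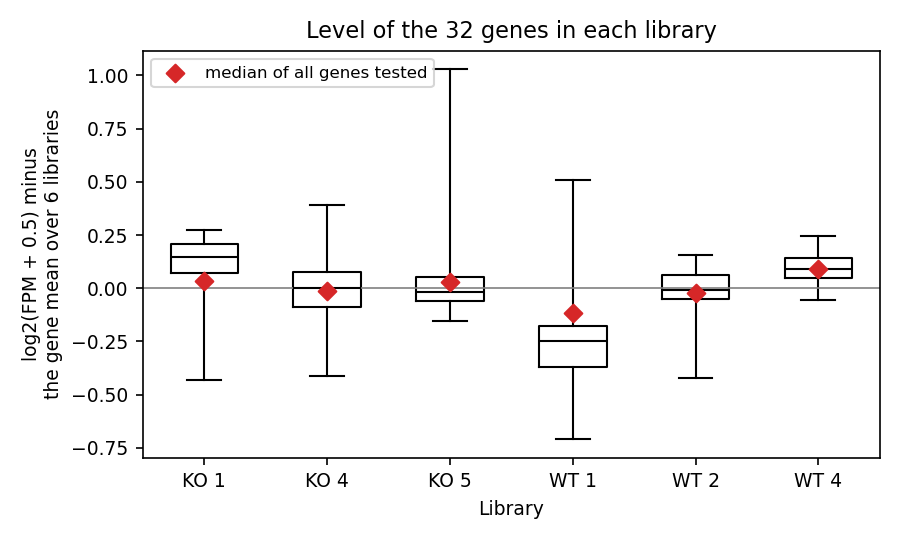
Box plots of the 32 genes' log2(FPM + 0.5) minus each gene's mean over the libraries, per library, with KO left of WT, boxes for the quartiles, whiskers to the lowest and highest gene, and diamonds for the median of all genes tested. The WT 1 box lies lowest, at a median of -0.25 where all genes stood at -0.12.

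Because the code splits the libraries, the KO change was also read within each series. Within series 22, where KO 1 stands against WT 1 and WT 2, 31 of 32 members had a change above 0, at a median of 0.28, beside 66.5% of all genes and a median of 0.12. Within series 24, where KO 4 and KO 5 stand against WT 4, 6 of 32 had a change above 0, at a median of -0.10, beside 28.7% of all genes and a median of -0.08. The sign differed between the series for 25 members, and for 70.9% of all genes. The difference between the series was tested as an interaction, and limma called 0 members and 0 of all genes (6 genes with ERCC scaling). At an unadjusted p under 0.05 there were 0 members and 369 genes, or 2.47%. The smallest interaction p among the members was 0.0912, for Aldoa (limma adjusted p = 0.678). Without WT 1 the median change of the members was 0.01 and 21 of 32 were above 0, beside 44.8% of all genes. Without KO 1, which leaves only series 24 to inform the KO change, that median was -0.10 with 6 above 0, beside 30.2% of all genes. Without WT 4, which leaves only series 22, it was 0.28 with 31 above 0, beside 64.7% of all genes.

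**Figure D3:**
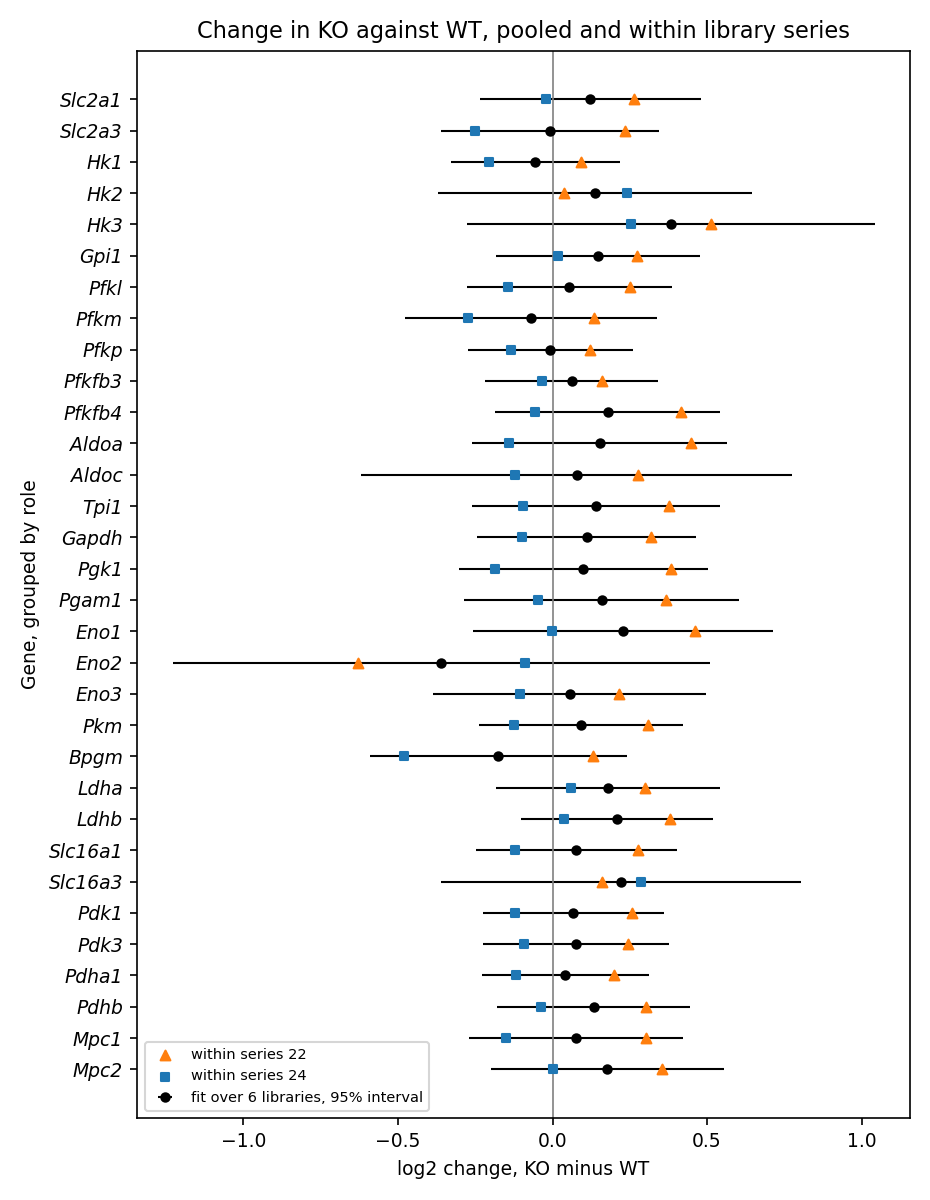
Log2 change, KO minus WT, for each of the 32 genes, with the fit over 6 libraries and its 95% interval (circle and bar) and the change within series 22 (triangle) and series 24 (square). All 32 intervals span 0, and the triangles lie right of 0 for 31 genes while the squares lie right of 0 for 6.

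Between the library series themselves, limma called 0 members, against 1 higher gene (0.00669%) and 20 lower genes (0.134%) in series 24 of all tested. The members' median change, series 24 minus series 22, was 0.03, and that of all genes 0.06, with 20 of 32 members and 61.7% of all genes above 0. Hk3 was the one member with an unadjusted p under 0.05 (0.0489, limma adjusted p = 0.561), where 5.98% of all genes were higher and 2.84% lower in series 24 by that rule. Pfkfb4, Eno3 and Pdk1 had every series 24 value above every series 22 value, beside 14.3% of all genes. The reverse held for 0 members, beside 6.14% of all genes.

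The 250 bases before the members' RefSeq starts (GRCm38.p6) were searched for the letters ACGTG on either strand, the core of the sites that HIF-1 binds, and for CACGTG, the E-box that MYC binds, which contains the first motif on both strands. The table held 45 starts for 31 of the 32 genes. ACGTG stood before 17 of these 45 starts (37.8%), beside 16.6% of all 32851 starts listed, and CACGTG before 4 of 45 (8.89%), beside 6.02%. By gene it was 14 of 31 for ACGTG (45.2%), beside 18.5% of all 27025 genes listed, and 4 of 31 for CACGTG (12.9%), beside 6.86%. The genes listed include genes not tested here. The Aldoa windows chr7:126799179-126799428 and chr7:126799255-126799504 overlap and hold the same match. These are matches of letters and are not evidence of binding. The 4 windows with CACGTG are shown to let the matches be seen in place, 5′ to 3′ on the gene's strand, with every ACGTG match on either strand in capitals. They lie at chr7:46845554-46845803 on the plus strand (Ldha, 1 of 2 listed starts), chr2:11502091-11502340 on the minus strand (Pfkfb3, 1 of 2), chr15:98092339-98092588 on the plus strand (Pfkm, 1 of 4) and chr3:104638414-104638663 on the plus strand (Slc16a1).
Ldha: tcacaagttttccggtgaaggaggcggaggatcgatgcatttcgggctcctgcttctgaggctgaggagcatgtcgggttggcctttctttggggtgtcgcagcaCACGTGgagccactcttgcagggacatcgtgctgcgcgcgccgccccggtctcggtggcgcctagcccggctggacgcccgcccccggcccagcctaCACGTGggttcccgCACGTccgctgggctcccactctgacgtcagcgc
Pfkfb3: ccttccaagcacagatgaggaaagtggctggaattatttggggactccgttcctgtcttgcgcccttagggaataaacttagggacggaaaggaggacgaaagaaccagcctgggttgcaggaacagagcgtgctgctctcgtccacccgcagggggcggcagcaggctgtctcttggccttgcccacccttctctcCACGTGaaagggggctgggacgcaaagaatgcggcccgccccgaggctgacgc
Pfkm: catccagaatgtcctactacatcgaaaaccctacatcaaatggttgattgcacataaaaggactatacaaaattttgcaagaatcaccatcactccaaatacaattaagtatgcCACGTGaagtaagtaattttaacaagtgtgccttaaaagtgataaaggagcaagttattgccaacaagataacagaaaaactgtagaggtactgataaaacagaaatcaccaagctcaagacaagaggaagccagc
Slc16a1: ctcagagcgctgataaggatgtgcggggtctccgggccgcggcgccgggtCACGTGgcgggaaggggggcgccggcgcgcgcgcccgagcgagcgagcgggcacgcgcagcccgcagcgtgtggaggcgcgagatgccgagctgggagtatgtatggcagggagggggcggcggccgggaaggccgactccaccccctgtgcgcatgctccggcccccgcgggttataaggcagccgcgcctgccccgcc
Ldha carried 3 separate matches in this window and the other 3 genes 1 each. The letters of either motif were not found in the listed windows of Gapdh, Eno1 or Gpi1.

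Among the glucose transporters, Slc2a1, the widely expressed carrier that rises on T cell activation, measured 19.6, 18.0 and 15.6 FPM in KO 1, KO 4 and KO 5, against 14.3, 18.4 and 17.0 FPM in WT 1, WT 2 and WT 4. The groups overlapped, with a change of 0.12 (SE 0.155, 95% interval -0.24 to 0.48). Slc2a3, a carrier of high glucose affinity, measured 67.0, 54.7 and 59.6 FPM in KO and 51.4, 62.9 and 68.0 FPM in WT libraries, a change of -0.01 (SE 0.152). Per kb of exon, Slc2a3 averaged 8.34 in KO and 8.39 in WT, against 5.06 and 4.73 for Slc2a1. Slc2a3 thus made up 62.2 ± 2.69% of the pair in KO and 63.9 ± 1.84% in WT (SD, n = 3 each).

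The hexokinases phosphorylate glucose. Hk1, the form of most resting tissues, measured 78.3, 66.0 and 69.7 FPM in KO libraries, against 73.7, 73.0 and 78.2 FPM in WT libraries, a change of -0.06 (SE 0.118), and its lowest library was KO 4. Hk2, the form induced by growth signals, measured 7.7, 7.2 and 12.6 FPM in KO libraries, against 7.2, 7.8 and 8.0 FPM in WT libraries. KO 5 was the high library, and the other KO values lay within the WT range. Hk3, a form found mainly in myeloid cells, measured 8.8, 8.7 and 19.2 FPM in KO libraries, against 5.4, 6.7 and 10.8 FPM in WT libraries. Its change of 0.38 was the largest above 0 among the members (SE 0.285, 95% interval -0.28 to 1.04). Series 22 alone gave 0.51 and series 24 alone 0.25.

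The order of the libraries by Hk3 resembled that by myeloid markers. The 16 markers, Csf1r, Lyz2 and C1qa among them, summed to 583.5, 640.7 and 1495 FPM in KO 1, KO 4 and KO 5, against 250, 391.3 and 905.1 FPM in WT 1, WT 2 and WT 4. KO 5 was highest and WT 1 lowest for both, and WT 4 came second for both. Csf1r alone measured 119.2, 115.6 and 227.9 FPM in the KO libraries, against 50.3, 77.4 and 173.3 FPM in the WT libraries. Slc16a3, a lactate exporter of highly glycolytic cells, was likewise highest in KO 5, at 4.9, 4.3 and 8.2 FPM in KO libraries, against 4.0, 4.7 and 4.8 FPM in WT libraries. How much of Hk3, Hk2 or Slc16a3 RNA came from myeloid cells was not tested. Without KO 5 the change was 0.17 for Hk3, -0.04 for Hk2 and 0.03 for Slc16a3, where with all libraries it was 0.38, 0.14 and 0.22.

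**Figure D4:**
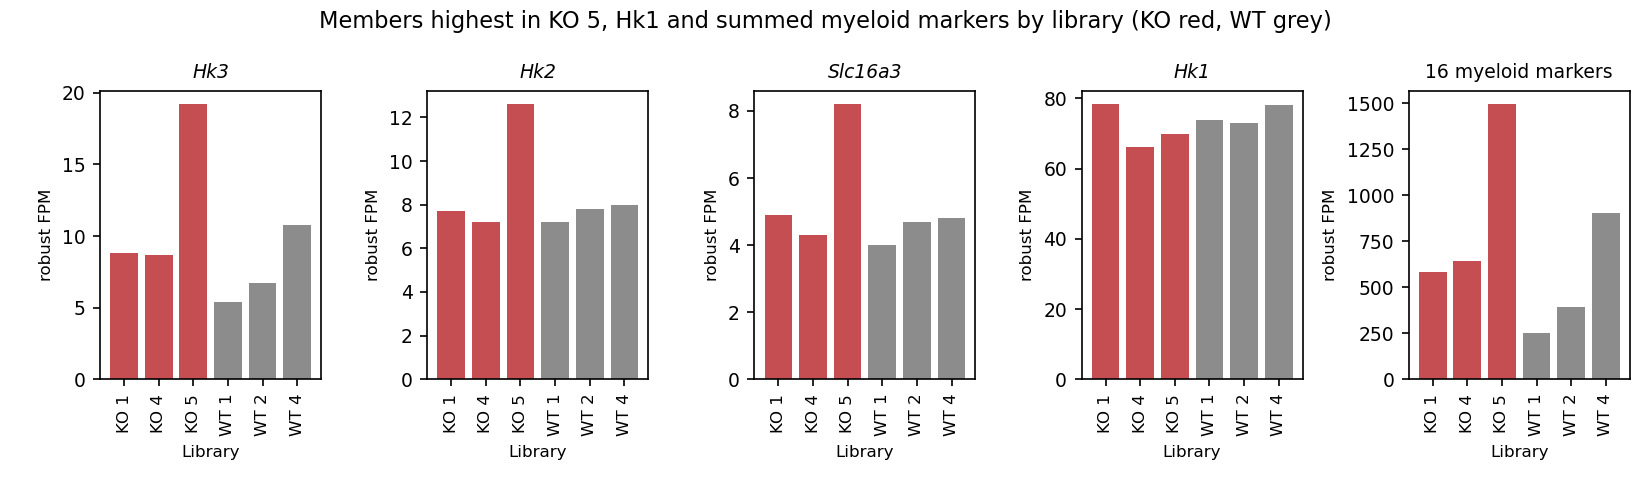
Robust FPM of Hk3, Hk2, Slc16a3 and Hk1 and the summed FPM of 16 myeloid markers in each library (bars from 0, KO red and left, WT grey). KO 5 is the highest bar for Hk3 (19.2), Hk2 (12.6), Slc16a3 (8.2) and the markers (1495), while Hk1 stays between 66.0 and 78.3.

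The upper steps of glycolysis showed small changes that did not pass the test. Gpi1, which turns glucose 6-phosphate to fructose 6-phosphate, measured 201.8, 222.0 and 191.2 FPM in KO libraries, against 147.5, 188.5 and 203.4 FPM in WT libraries, a change of 0.15 (SE 0.142). Of the phosphofructokinase subunits, which form the committed step, Pfkp averaged 175.6 ± 4.36 FPM in KO and 173.1 ± 18.0 in WT, Pfkl 66.7 ± 6.10 in KO and 64.7 ± 8.09 in WT, and Pfkm 11.4 ± 2.00 in KO and 12.1 ± 1.21 in WT (SD, n = 3 each). Pfkm was lowest in KO 4, at 9.1 FPM, with the other 5 libraries between 10.7 and 12.9. Pfkfb3 and Pfkfb4 make and remove fructose 2,6-bisphosphate, the activator of that step. Pfkfb3 had KO values of 39.6, 39.6 and 40.0 FPM and WT values of 33.1, 37.9 and 40.8 FPM. Pfkfb4 had 15.9, 16.3 and 17.9 FPM in KO libraries and 10.8, 12.9 and 17.8 FPM in WT libraries, a change of 0.18 (SE 0.158) that was 0.41 within series 22 and -0.06 within series 24.

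Aldolase cleaves the doubly phosphorylated sugar into trioses. Aldoa measured 175.6, 141.0 and 150.9 FPM in KO libraries, against 109.6, 150.7 and 161.0 FPM in WT libraries, with a change of 0.15 (SE 0.178). Aldoc, a form best known from brain, was at 1.2 to 2.0 FPM throughout, and per kb it made up 1.06 ± 0.108% of both aldolases in KO and 1.13 ± 0.449% in WT (SD, n = 3 each). Tpi1, which interconverts the trioses, measured 51.9, 38.8 and 44.9 FPM in KO libraries, against 34.1, 46.6 and 44.6 FPM in WT libraries.

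The lower steps included some of the most abundant members. Gapdh, often used as a reference gene, measured 228.0, 179.2 and 173.5 FPM in KO libraries, against 158.8, 210.3 and 188.8 FPM in WT libraries, so that it varied 1.44-fold over the libraries. Pgk1, which makes the first ATP of the route, measured 124.2, 107.1 and 100.1 FPM in KO libraries, against 81.7, 110.5 and 117.8 FPM in WT libraries. Eno1 varied more, at 257.7, 308.8 and 228.5 FPM in KO libraries, against 151.0, 232.1 and 266.0 FPM in WT libraries, with a change of 0.23 (SE 0.210, 95% interval -0.26 to 0.71). KO 4 was its highest library and WT 1 its lowest, 2.05-fold apart, and the change was 0.46 within series 22 and -0.002 within series 24. Pkm, the pyruvate kinase of most tissues, averaged 219.2 ± 15.3 FPM in KO and 203.4 ± 30.3 FPM in WT (SD, n = 3 each), a change of 0.09 (SE 0.143). The values are per gene, so the splice forms of Pkm are not separated.

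Pgam1 and the minor enolases were low. Pgam1, the mutase between phosphoglycerate kinase and enolase, measured 7.3, 5.5 and 6.5 FPM in KO libraries, against 4.8, 6.4 and 6.2 FPM in WT libraries, and its 3.09 FPM per kb set it far under its neighbours in the route, Pgk1 at 47.6 and Eno1 at 44.7. Of the runs of 50 bases in annotated Pgam1 transcripts, 36.2% also occur in transcripts of other genes, pseudogenes included. That share was 53.9% for Pgk1, 26.0% for Eno1, 25.8% for Pkm, 24.7% for Gapdh and 21.0% for Ldhb, and it was 0 for 13 members, Slc2a1, Hk1, Hk3 and Pdk1 among them. The sources used here do not say how reads that fit more than 1 gene were counted, so the levels of these 6 genes are uncertain. Copies picked by name reached at most 1.8 FPM (Mpc1-ps), with Eno1b and Ldha-ps2 at up to 0.9 FPM and Pgk1-ps3 at up to 0.7 FPM. The genes that share most with Gapdh, Pkm and Ldhb (Gm7336, Gm49759 and Gm5514) were not among those read. Low values at copies do not show how shared reads were counted. Eno3, the muscle enolase, measured 13.3, 14.5 and 15.6 FPM in KO libraries, against 9.1, 14.2 and 16.2 FPM in WT libraries. Eno2, the neuronal enolase, lay near the filter at 0.7, 1.2 and 1.0 FPM in KO libraries, against 1.8, 1.0 and 1.2 FPM in WT libraries. It was the one member highest in WT 1 alone, the library with the most signal at receptor genes.

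Bpgm makes 2,3-bisphosphoglycerate, which is best known from red blood cells. It measured 11.2, 7.1 and 8.6 FPM in KO libraries, against 9.8, 10.6 and 11.1 FPM in WT libraries, with KO 4 and KO 5 below all WT values and KO 1 above them. Its change was -0.18 (SE 0.180), and the series taken alone gave 0.13 (series 22) and -0.48 (series 24). Erythroid and platelet markers summed to 28.8, 20.2 and 28.2 FPM in the same KO libraries and 28.3, 27.7 and 17.2 FPM in the WT libraries, so that KO 4 and WT 4 were the low ones. Of 14 such markers 13 were found, and the 3 globin genes Hba-a1, Hbb-bs and Hbb-bt were listed at 0 in every library. The part of red cell RNA in Bpgm was not tested.

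The 4 lactate genes had changes above 0, at a median of 0.19, but none passed the test. With ERCC scaling, where 7.87% of all genes were above 0, those of Ldha, Ldhb and Slc16a1 turned below 0. Ldha, which reduces pyruvate to lactate, measured 146.9, 167.9 and 133.5 FPM in KO libraries, against 104.0, 136.9 and 143.6 FPM in WT libraries, a change of 0.18 (SE 0.157, 95% interval -0.18 to 0.54). Ldhb, whose subunit favours the reverse reaction, measured 22.8, 21.4 and 19.7 FPM in KO libraries, against 16.8, 18.0 and 20.0 FPM in WT libraries. Its change of 0.21 (SE 0.134, 95% interval -0.10 to 0.52) had the smallest p of the members, at 0.158 before adjustment. Only KO 5 and WT 4 kept the groups from separating, with KO 5 at 19.7 and WT 4 at 20.0. Slc16a1, a transporter of lactate and pyruvate, averaged 43.5 ± 3.74 FPM in KO and 41.0 ± 4.77 FPM in WT (SD, n = 3 each). Ldhb made up 23.2 ± 1.80% of the LDH pair per kb in KO and 23.3 ± 1.92% in WT (SD, n = 3 each), so that the balance of the subunit genes differed by less than the spread between libraries.

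Pyruvate entry into the mitochondrion is represented by 6 members, all with changes above 0 that did not pass. All of them turned below 0 with ERCC scaling, where 7.87% of all genes were above 0. Pdk1, a kinase that inactivates pyruvate dehydrogenase, had the highest FPM of all members, at 344.2, 371.8 and 345.9 in KO libraries, against 272.8, 304.3 and 390.3 in WT libraries, a change of 0.07 (SE 0.127). Pdk3, another such kinase, averaged 21.5 ± 1.62 FPM in KO and 20.5 ± 1.46 FPM in WT. The target enzyme's subunit genes Pdha1 and Pdhb averaged 170.4 ± 10.9 and 86.0 ± 7.10 FPM in KO, against 165.4 ± 11.7 and 78.6 ± 8.46 FPM in WT (SD, n = 3 each). Pdha1 varied least of all members, 1.18-fold between its lowest and highest library. Mpc1 and Mpc2, which together form the mitochondrial pyruvate carrier, had changes of 0.08 and 0.18 (SE 0.150 and 0.163).

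Levels of different genes were compared per kb of exon, over all 6 libraries. Aldoa led at 50.9 FPM per kb, followed by Pgk1 (47.6), Gapdh (45.9), Pdha1 (45.0), Eno1 (44.7), Pdk1 (43.5), Pkm (42.3) and Ldha (41.9), all between the 94.3 and 95.5 percentile of the genes tested. The order within these 8 is not firm. Aldoa varied 1.60-fold between its lowest and highest library, more than the gap between the first and the last of the 8. The levels of Pgk1, Gapdh, Eno1 and Pkm are also uncertain, since 24.7% to 53.9% of their runs of 50 bases occur in transcripts of other genes. At the other end were Slc16a3 (0.968), Aldoc (0.552) and Eno2 (0.244). Hk1 at 8.57 stood above Hk3 at 2.70 and Hk2 at 1.41. The members are spread over 15 chromosomes, with 7 on chromosome 6.

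The share of each isozyme within its family, taken per kb, does not depend on the scaling of a library. Over 15 shares, an exact two-sided permutation test of 3 KO against 3 WT libraries, which cannot go below 0.10, gave adjusted p of 0.75 to 1, and 0 shares passed. The hexokinases shifted most, with Hk3 at 18.6%, 20.9% and 33.7% of the 3 genes in KO 1, KO 4 and KO 5, against 13.0%, 15.6% and 21.8% in WT 1, WT 2 and WT 4 (exact permutation p = 0.3, adjusted p = 0.75). Hk1 made up 71.4%, 68.4% and 52.7% in the KO libraries, against 76.4%, 73.2% and 68.2% in the WT libraries (exact permutation p = 0.3). For the Hk3 share, KO 1 lay above both WT libraries of series 22, and in series 24 KO 5 lay above WT 4 while KO 4 lay under it. Eno2 reached the smallest p the test allows (exact permutation p = 0.1, adjusted p = 0.75). Its share of the enolases was 0.267%, 0.386% and 0.411% in KO and 1.14%, 0.412% and 0.432% in WT libraries. KO 5 and WT 2 thus all but touched, and both rest on an Eno2 value of 1.0 FPM, rounded to 1 decimal. The high WT share is that of WT 1, the library with the most signal at receptor genes. Phosphofructokinase shares were steady, with Pfkp at 49.5 ± 2.09% in KO and 49.3 ± 1.43% in WT (SD, n = 3 each).

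**Figure D5:**
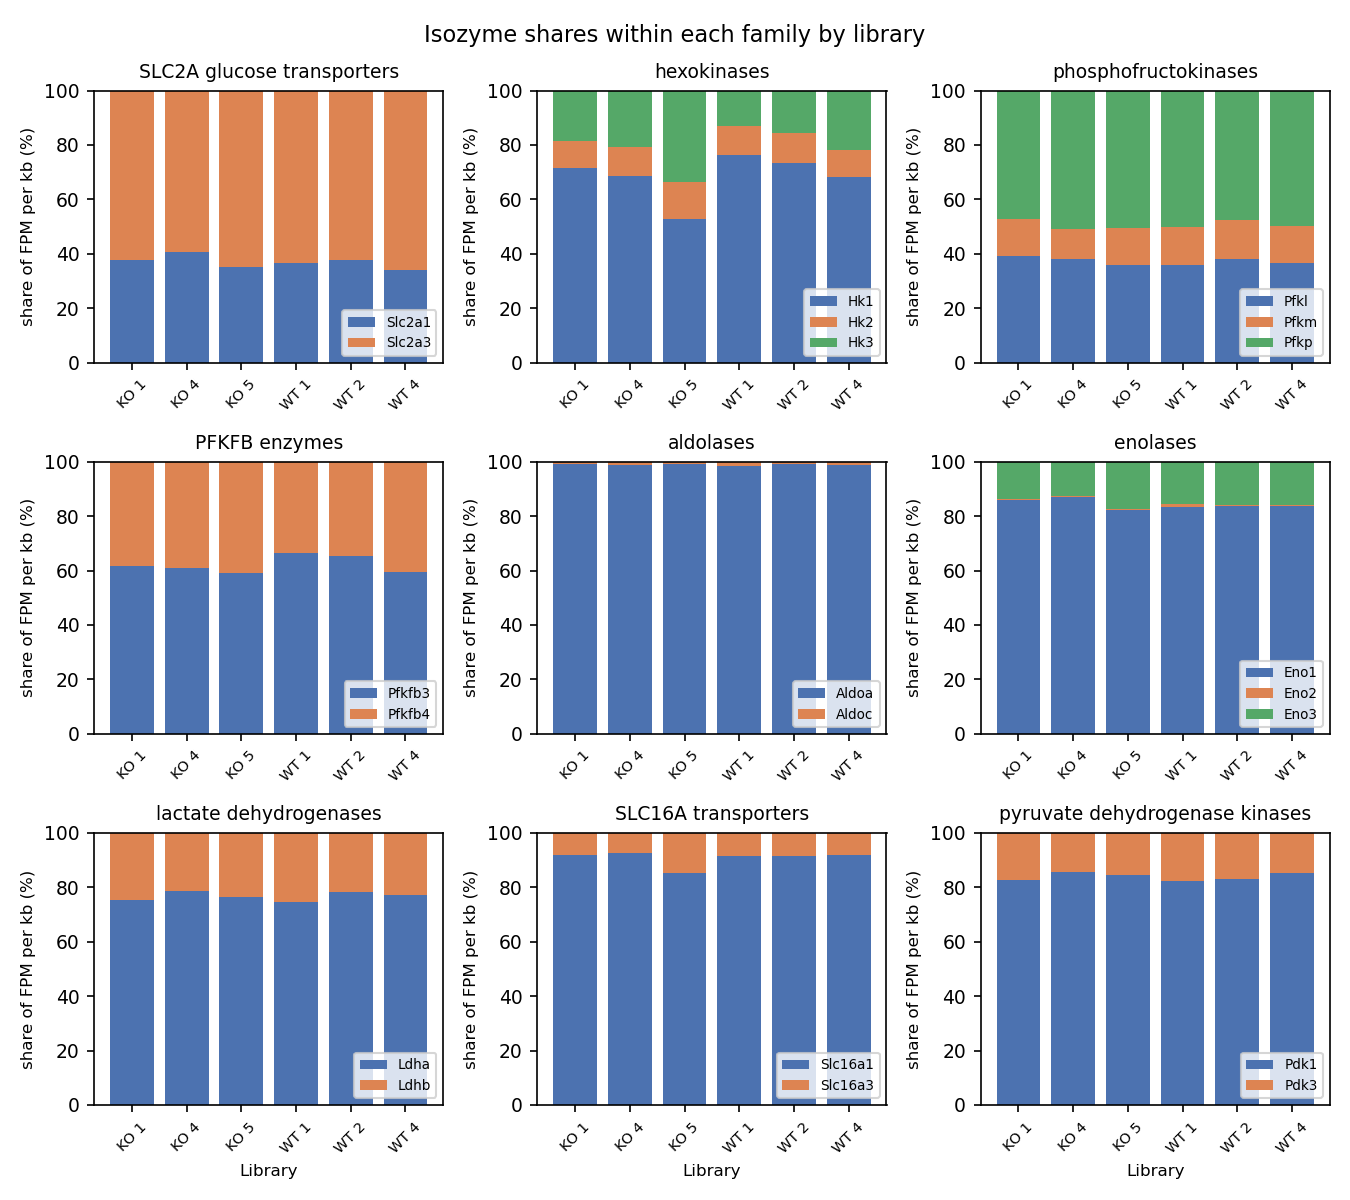
Share (percent of FPM per kb of exon) of each isozyme gene within 9 families, per library, with KO left of WT and stacked bars that add to 100%. The hexokinase bars differ most between libraries, with Hk3 at 33.7% in KO 5 and 13.0% in WT 1.

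Genes next to these in metabolism were read from lists. Pentose phosphate genes, which branch off after hexokinase, had all 7 tested genes above 0 at a median of 0.20, with 0 called. With ERCC scaling 2 of 7 were above 0, beside 7.87% of all genes. Without KO 1 it was 4 of 7 at a median of 0.01, beside 30.2% of all genes above 0. Without WT 1 it was 5 of 7 at 0.11, beside 44.8%, and without WT 4 it was 7 of 7 at 0.33, beside 64.7%. Tkt, transketolase, measured 178.7, 168.2 and 164.6 FPM in KO libraries, against 126.0, 142.4 and 161.2 FPM in WT libraries. The groups did not overlap, and the change of 0.23 (SE 0.126) did not pass (limma adjusted p = 1). Of the 7 genes, 2 had every KO value higher and 0 every KO value lower, beside 1.09% and 1.79% of all genes. Pgd measured 32.7, 41.0 and 38.8 FPM in KO libraries, against 25.4, 30.3 and 35.5 FPM in WT libraries, a change of 0.20 (SE 0.124, limma adjusted p = 1). All 7 were lowest in WT 1.

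Of 16 citric acid cycle genes 0 were called and 15 had a change above 0 (0 with ERCC scaling), at a median of 0.07, with Mdh2 at 0.18. Without KO 1 only 1 of the 16 was above 0, at a median of -0.12, beside 30.2% of all genes above 0. Without WT 1 it was 12 at 0.01, beside 44.8%, and without WT 4 it was 16 at 0.26, beside 64.7%. The same shares of all genes stand beside the lists that follow. Of 7 tested genes of the pyruvate dehydrogenase complex and its regulators 0 were called, at a median of 0.04, with 4 above 0 (0 with ERCC scaling). Without KO 1 that count was 1 at a median of -0.08, without WT 1 it was 3 at -0.0075, and without WT 4 it was 6 at 0.11. Pdhx, a binding protein of the complex, measured 15.0, 15.0 and 14.6 FPM in KO libraries, against 12.7, 12.7 and 13.9 FPM in WT libraries, without overlap but without passing (change 0.16, SE 0.123, limma adjusted p = 1). It was the 1 gene of the 7 without overlap, beside 1.09% of all genes with every KO value higher. Pdk2, another kinase of the complex, was at -0.11. Of 13 tested other transporters, isozymes and regulators, out of 22 listed, 0 were called, at a median of 0.04. A change above 0 was found for 10 of them (0 with ERCC scaling), while the 2 of smallest p, Slc2a9 and Pfkfb2, were both at -0.13. Without KO 1 the count was 4 at a median of -0.09, without WT 1 it was 4 at -0.03, and without WT 4 it was 10 at 0.17. Of 12 tested glycogen and gluconeogenesis genes 0 were called, at a median of 0.01, with 7 above 0 (1 with ERCC scaling). Pcx was at -0.30 and Pygb at 0.19. Of 18 upstream regulators 0 were called, at a median of 0.06, with 14 above 0 (0 with ERCC scaling). Without KO 1 it was 2 at a median of -0.10, without WT 1 it was 11 at 0.02, and without WT 4 it was 16 at 0.23. Among them Egln3, an oxygen sensor that marks HIF-1α for loss, measured 2.1, 1.9 and 2.1 FPM in KO libraries, against 2.6, 2.2 and 3.0 FPM in WT libraries (change -0.32, SE 0.244, limma adjusted p = 1). Egln3 was the 1 gene of the 18 without overlap, beside 1.79% of all genes with every KO value lower. Its highest KO value (2.1 FPM) and lowest WT value (2.2 FPM) lie next to each other at the 1 decimal given. Mlx, a partner of the glucose-sensing factors, was at 0.18.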

How the data were processed

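RNA from CD4 T cells of 3 KO and 3 WT samples was sequenced after removal of ribosomal RNA. The authors deposited normalized robust FPM, as the deposited table is named, read here as a kind of RPM, and the values are rounded to 1 decimal, so whole reads were not recovered and no counting interval is given. Per the submitters' processing notes, STAR, featureCounts, DESeq2, DESeq and the build GRCm38.p3 were used, with no role or version. Another 6 columns matched no sample and were not used. Symbols were found for 54409 of 54532 gene rows, and 92 ERCC rows were left out. Values were analysed as log2(FPM + 0.5), which understates changes of low genes, for genes with a mean of at least 1, with limma 3.58.1 in R 4.3.3 (series and genotype terms, mean-variance trend, Benjamini-Hochberg adjustment). Exon lengths come from GENCODE for GRCm38. In simulations of KO against WT on 14944 genes, 65.5% of 200 genes changed 2-fold and 91.5% of 200 changed 4-fold were called. Noise was drawn for each gene on its own, without shifts shared by many genes of a library. The 200 genes were also changed at once, which makes the adjusted threshold easier to pass than where few genes change. For both reasons the shares called may overstate what the real data allow, where Prmt5 with a change of -0.78 was not called. They are not the power for a single changed gene. The gene members and gene lists were chosen with earlier results of these data known. All 32 members are named, with the 2 genes of smallest p from each further list, since none was called, except 1 gene that is not reported here. Alternatives changed pseudocount, filter, series term, scaling, variance model, replicate block and the libraries used. Isozyme shares were tested with scipy 1.17.1.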

Additional observations from a re-analysis of the deposited data

How the results depend on the processing

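No member was called under any alternative (lowest limma adjusted p 0.65, Ldhb without WT 4), and the count of genes called in KO against WT stayed at 0, except 1 higher and 4 lower with the replicate block. Whether shared replicate numbers pair the samples is not known, and the main fit does not pair them. Deviations from the group means correlated at -0.160 (KO 1, WT 1) and -0.409 (KO 4, WT 4), with only 2 shared numbers. Such deviations add to 0 within each group, so these values cannot decide the question. The members' median ran from -0.10 to 0.28 and the number above 0 from 6 to 31 when single libraries were left out. The share of all genes above 0 ran from 30.2% to 64.7% in the same fits. With ERCC scaling the median was -0.12 and 3 members stayed above 0, where 7.87% of all genes were above 0. It also gave 6 genes called for the difference between series, and 3 higher and 8 lower genes for series 24 against 22. That count was 6 higher and 48 lower with a filter at a mean of 5, and 0 to 38 higher and 0 to 92 lower without single libraries. The cause was not tested. Turned below 0 by ERCC scaling were Pdha1 (-0.18), Pfkl (-0.16), Eno3 (-0.16), Pfkfb3 (-0.16), Pdk1 (-0.15), Slc16a1 (-0.14), Pdk3 (-0.14), Mpc1 (-0.14), Pkm (-0.13), Pgk1 (-0.12), Aldoc (-0.12), Gapdh (-0.11), Slc2a1 (-0.091), Pdhb (-0.085), Tpi1 (-0.076), Gpi1 (-0.073), Hk2 (-0.070), Aldoa (-0.066), Pgam1 (-0.043), Ldha (-0.040), Mpc2 (-0.038), Pfkfb4 (-0.036) and Ldhb (-0.0064). The replicate block reversed Aldoc (-0.029), Hk2 (-0.026), Pfkp (0.016) and Slc2a3 (0.034). Median-of-ratios scaling reversed Slc2a3 (0.028) and Pfkp (0.029), and leaving out the series term Pfkp (0.026). Leaving out single libraries gave ranges across 0 for Mpc2 (-4.1e-05 to 0.35), Pfkfb3 (-0.035 to 0.16), Pdk1 (-0.12 to 0.26), Slc16a1 (-0.12 to 0.28), Slc2a1 (-0.020 to 0.27), Eno1 (-0.0020 to 0.46), Bpgm (-0.48 to 0.13), Hk2 (-0.040 to 0.29), Slc2a3 (-0.25 to 0.23), Tpi1 (-0.095 to 0.38), Gapdh (-0.098 to 0.32), Aldoa (-0.14 to 0.45), Pkm (-0.13 to 0.31), Pfkfb4 (-0.058 to 0.41), Hk1 (-0.20 to 0.094), Pfkl (-0.14 to 0.25), Eno3 (-0.10 to 0.22), Aldoc (-0.12 to 0.28), Pfkp (-0.13 to 0.12), Pdhb (-0.037 to 0.30), Pfkm (-0.27 to 0.13), Mpc1 (-0.15 to 0.30), Pgam1 (-0.048 to 0.37), Pdk3 (-0.093 to 0.24), Pgk1 (-0.19 to 0.38) and Pdha1 (-0.12 to 0.20). In percentage points the shares of Hk2 (-0.256 to 1.54), Pfkp (-0.550 to 1.47), Aldoc (-0.286 to 0.162), Ldhb (-0.864 to 0.987) and Slc16a3 (-0.638 to 2.98) also crossed 0. Values rounded to 0.1 FPM limit the lowest genes, Eno2 and Aldoc, most.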
